A study of Drosophila melanogaster with 3 samples.

Results

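The nuclear pore genes of Drosophila melanogaster, the genes for the proteins that build the channel between nucleus and cytoplasm, were examined for Ets97D signal at their promoters. Members were the protein-coding genes of the Release 6 (dm6) annotation whose symbol is Nup followed by a digit, together with mbo, Megator, Elys, Gp210, Ndc1, Rae1 and Sec13. The rule wrote Megator as Mtor, and the annotation calls it Mgtor; the kinase gene mTor is another gene and was not included. This gave 28 members of 13968 protein-coding genes. A member was counted as having a peak where a peak summit lay within 500 bp of any of its annotated transcription start sites, upstream or downstream.

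Ets97D, also named Delg, was mapped by chromatin immunoprecipitation with sequencing (ChIP-seq) in embryos of a transgenic line that stably expresses the protein with GFP at its C terminus. The labels describe an immunoprecipitation with an antibody to GFP, while their antibody field names Ets97D. Whole embryos of both sexes, collected from 0 to 24 h of age, gave 3 biological replicates, which form 1 group with no other genotype, treatment or stage. All replicates therefore carry the transgene, and a collection this wide mixes stages and all embryonic cell types, so that binding in few cells and weak binding in many cannot be told apart. The data are region lists with a signal per region; they hold no read counts, so the depth of each replicate is unknown. The replicate lists held 24391, 28843 and 29122 regions, peaks and background together, and the optimal set, made by the authors from all replicates by comparing ranks between them (IDR), held the regions of highest signal in the pooled list. Of its peaks, 4118 lay at promoters.

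The nuclear pore complex is a ring-shaped assembly in the nuclear envelope. An outer ring of Y-shaped subcomplexes and an inner ring form its scaffold, membrane proteins anchor it, proteins rich in phenylalanine and glycine fill the central channel, and filaments extend to the cytoplasm and into a basket on the nuclear side. Ets97D belongs to the ETS family of transcription factors, whose DNA-binding domain recognises a GGAA core. Its closest mammalian counterpart is GABPA, the DNA-binding subunit of NRF-2.

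Most nuclear pore genes had Ets97D signal at the promoter, but at modest height. An optimal peak lay at 21 of the 28 members (75.0%), against 36.5% of all protein-coding genes. When each peak was given only to the gene with the nearest start site, 12 members (42.9%) had one, against 26.9% of all genes. The difference between these counts is 9 members whose strongest peak lay nearer to the start of a neighbouring gene.

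The single replicates gave similar counts. The regions of highest signal in each replicate, taken to the number of peaks in the optimal set, are here called its strongest set. In these, a summit lay at 22 members (78.6%) in replicate 1, at 17 (60.7%) in replicate 2 and at 19 (67.9%) in replicate 3. The shares of all genes were 35.6%, 36.6% and 34.7%. In every replicate, the members' share was above that of all genes, and replicate 2 held the fewest members. The strongest sets of all 3 replicates held 14 members, against 29.7% of all genes. In the full lists, which include background, 25 members (89.3%) had a region in every replicate, against 48.1% of all genes. The pooled full list of 27625 regions reached all 28 members, against 59.0% of all genes. Optimal peaks with a strongest-set summit of every replicate within 150 bp of their own summit lay at 15 members (53.6%), against 29.3% of all genes. The series holds no second group to compare with, no test was run, and these shares are a description.

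**Figure D1:**
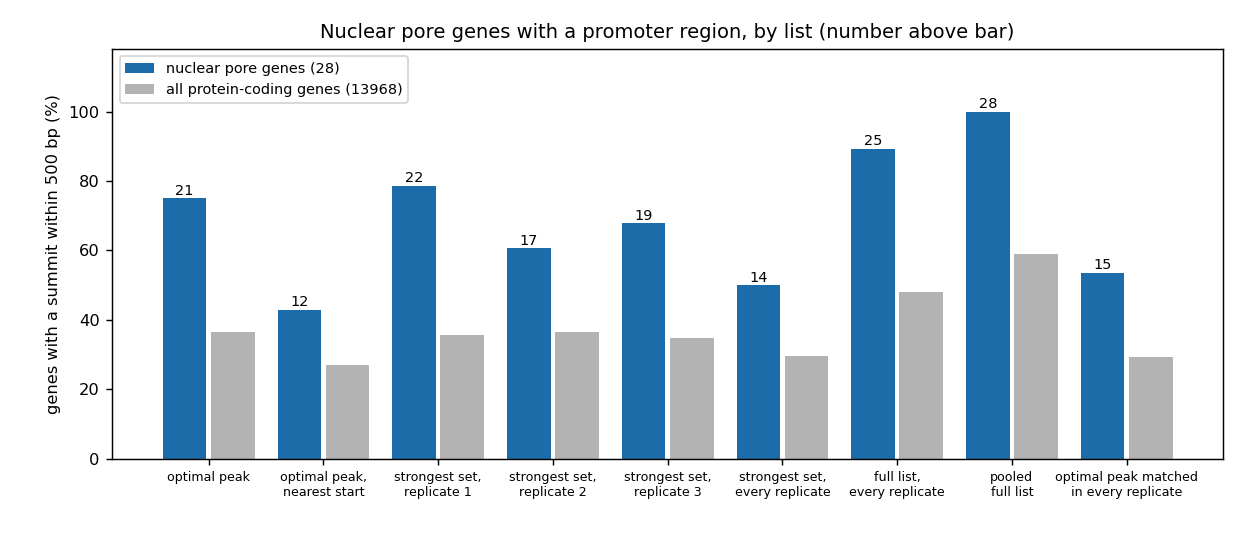
Share of genes (%) with a region summit within 500 bp of a start site, for the 28 nuclear pore genes (blue, number of members above each bar) and all 13968 protein-coding genes (grey), in each list. The blue bar is the higher of the pair in every list, from 42.9% against 26.9% to all 28 members against 59.0%.

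One member stood far above the others. Nup37, an outer ring protein, is transcribed away from RpS27, the gene of a small ribosomal subunit protein, and the start sites of the pair lie back to back across a short gap. The peak at 3R:25246992-25247994 (dm6) had a signal of 8499, rank 5 in the optimal set. In the replicates, its signal was 2715, 2945 and 2951, rank 5 in each. The summit lay 143 bp upstream of the first Nup37 start site, and 1 bp upstream of that of RpS27, so by nearest start site the peak belongs to RpS27. In replicate 1, the same region held a second summit 74 bp downstream of the Nup37 start with a signal of 294, while replicates 2 and 3 had none there.

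Nup358, which encodes the large SUMO ligase and Ran-binding protein of the cytoplasmic filaments, is the next gene downstream on the same strand, 247 bp beyond the end of Nup37. It had a peak of its own at 3R:25249171-25249413, with a signal of 272 (rank 1136) and the summit 9 bp upstream of its start. The replicates gave signals of 93.4, 87.2 and 96.6 there, with summits within 6 bp of the optimal one. A second, weaker optimal peak lay 235 bp inside Nup358, with a signal of 92.6 (rank 5408), just above the lowest signal in the optimal set, 89.1. The 3 replicates each had separate summits at both positions of Nup358, so signal at this gene was resolved from the RpS27 and Nup37 peak.

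**Figure D2:**
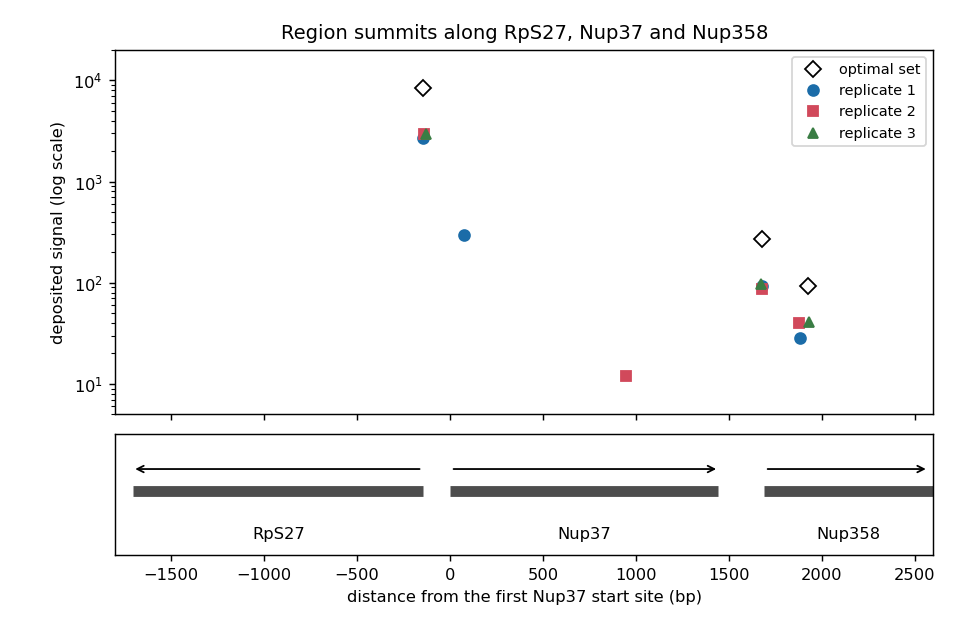
Deposited signal (log scale) of each region summit along RpS27, Nup37 and Nup358, by distance in bp from the first Nup37 start site, for the optimal set (open diamonds) and the 3 replicates, with genes and their direction below. The highest summit, 8499 in the optimal set, lies 143 bp upstream of Nup37, and Nup358 has summits of its own at and beyond its start.

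The sequences around 8 of the members' summits are given because they show what lies under the strong and the weak peaks. Each runs 50 bp to either side of the optimal summit, on the plus strand of dm6. Capitals mark words of a panel searched on both strands: CCGGAA and CCGGAAG (ETS words), TATCGATA (the Dref element), CGATA (contained in it and bound by BEAF-32), GGTCACAC (the core of the M1BP element), TATAAA (the TATA box) and CAGCTG (an E-box). The first 5 lines come from 5 of the 6 members of highest signal, and the last 3 from weaker peaks. The windows lie at 3R:25247465-25247565 (RpS27/Nup37), X:19852073-19852173 (Nup205), 3R:23781589-23781689 (Nup98-96), 2L:11123672-11123772 (Nup160), 3R:25249289-25249389 (Nup358), 3R:23924339-23924439 (Ndc1), X:16599169-16599269 (Nup153) and 3R:23356031-23356131 (Sec13).
RpS27/Nup37: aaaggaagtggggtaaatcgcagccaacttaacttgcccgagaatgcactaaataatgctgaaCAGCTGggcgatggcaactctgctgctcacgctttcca
Nup205: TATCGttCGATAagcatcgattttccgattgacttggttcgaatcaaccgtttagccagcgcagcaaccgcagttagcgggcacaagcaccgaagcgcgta
Nup98-96: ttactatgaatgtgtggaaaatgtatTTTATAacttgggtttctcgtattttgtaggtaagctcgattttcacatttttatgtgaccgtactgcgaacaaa
Nup160: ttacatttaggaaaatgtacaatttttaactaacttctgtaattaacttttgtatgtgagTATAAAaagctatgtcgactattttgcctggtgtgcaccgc
Nup358: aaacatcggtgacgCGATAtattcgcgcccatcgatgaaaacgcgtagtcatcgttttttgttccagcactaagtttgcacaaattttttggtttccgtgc
Ndc1: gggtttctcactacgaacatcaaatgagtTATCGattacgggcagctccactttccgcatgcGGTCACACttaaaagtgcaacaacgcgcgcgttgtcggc
Nup153: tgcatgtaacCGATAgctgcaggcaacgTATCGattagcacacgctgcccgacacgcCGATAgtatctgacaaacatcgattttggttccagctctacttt
Sec13: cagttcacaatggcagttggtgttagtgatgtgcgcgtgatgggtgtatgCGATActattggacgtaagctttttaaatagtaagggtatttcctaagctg

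None of these windows holds CCGGAA. The bare GGAA core was not in the panel and is not capitalised, but each window holds it or its reverse complement TTCC. How often GGAA lies at members' peaks or at promoter peaks was not counted. Over all 23 optimal peaks at members, CCGGAA was within 50 bp of 0 summits, against 3.62% of the 4118 optimal promoter peaks, and CCGGAAG of 0, against 0.801%. CCGGAA was thus rare under promoter peaks in general. Whether the bare core was rare or common there is unknown, as it was not counted. Within 100 bp, CCGGAA was found at 3 of the members' peaks, those of Nup358, Nup54 and Nup93-2, against 6.36% of all promoter peaks. The shorter word GGAAG, which is the core with 1 more base, was added after the data were seen. It was within 50 bp of 1 member summit, the RpS27 and Nup37 one, against 9.71% of promoter peaks.

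CGATA, the shortest word of the panel, was the commonest at the members, as it was over all promoter peaks. It was found at 11 of 23 members' peaks (47.8%), against 37.7% of promoter peaks. Its longer form TATCGATA was at 3 peaks (13.0%, against 9.91%), those of Mgtor, Nup188 and Nup50. ATCGAT, the centre of TATCGATA and also added after the data were seen, was at 8 peaks (34.8%, against 21.6%). The windows of Nup205, Nup358, Ndc1 and Nup153 above hold CGATA and ATCGAT but not the full element.

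The other words were at few members. GGTCACAC was at Ndc1 and Nup44A (8.70%, against 7.72% of promoter peaks), TATAAA at Nup160 and Nup98-96 (8.70%, against 12.9%) and CAGCTG at Nup37, Nup188 and Nup44A (13.0%, against 9.08%). At least 1 word of the panel was at 15 of 23 peaks (65.2%), against 58.8%. In promoters of 300 bp (250 bp before to 50 bp after the first start site), regardless of peaks, TATCGATA was found at 7 of 28 members, against 9.36% of all genes, and ATCGAT at 15, against 23.3%. The 7 members were Gp210, Mgtor, Nup188, Nup50, Nup54, Nup58 and Nup75, and 2 of them, Gp210 and Nup58, had no optimal peak. CCGGAA was in the promoters of 2 members, Nup50 and Nup93-2, against 6.77% of all genes. TATAAA, less common at the members' summits than at promoter peaks, was in 17 of the 28 promoters, against 45.8% of all genes, and GGAAG was in 4, against 27.8%. CGATA was in 17, against 47.3%, GGTCACAC in 4, against 7.69%, and CAGCTG in 5, against 17.6%. The median GC content of the members' summit windows was 42.6%, against 40.6% for promoter peaks.

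To set members side by side, each replicate's signal was divided by the median of its strongest set, which was 52.4, 53.2 and 60.6 in replicates 1, 2 and 3. A relative signal of 1 is therefore the level of a typical strong region of that replicate. The values below are relative signals unless an optimal signal is named.

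The outer ring, the Y complex that forms the scaffold on both faces of the pore, had an optimal peak at 8 of its 10 members. Nup37 had relative signals of 51.8, 55.4 and 48.7 in replicates 1, 2 and 3 (mean 52.0 ± 3.33, SD, n = 3), higher than every other member in every replicate. Nup98-96, whose transcripts encode both the mobile channel protein Nup98 and the scaffold protein Nup96, had 2.49, 1.85 and 2.57 (2.31 ± 0.395), with an optimal signal of 370 (rank 607). Nup160, a branch of the Y, had 1.80, 1.54 and 1.79 (1.71 ± 0.146), and an optimal signal of 282. In both of these genes, replicate 2 was the lowest and the other replicates were close together.

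Elys, the chromatin-binding protein that starts pore assembly after mitosis, had relative signals of 1.15, 1.35 and 1.13 (1.21 ± 0.125) and an optimal signal of 192. The Elys summit lay 158 bp upstream of the Elys start, and 122 bp downstream of a start site of Ranbp21, an exportin gene. Nup44A, the fly Seh1 protein, had 1.14, 0.884 and 0.806 (0.945 ± 0.177). The Nup44A peak, at 2R:7989584-7990033, was not at the first annotated start site, at position 7988462, but 50 bp upstream of an internal one, where ACC, the acetyl-CoA carboxylase gene, has a start site 95 bp from the summit. These are cases where a summit could be assigned to more than 1 gene or start site.

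The remaining outer ring members were weaker. Sec13, shared with the coat of vesicles that leave the endoplasmic reticulum, had relative signals of 0.951, 1.09 and 0.424 (0.822 ± 0.352), with replicate 3 below the others. Nup75 had 0.720, 0.955 and 0.663 (0.779 ± 0.155), and Nup107, another stem protein of the Y, had 0.792, 0.432 and 0.538 (0.587 ± 0.185). Of this trio, Nup107 alone had no other gene's start site within 500 bp of the summit. Its optimal signal was 96.3 (rank 5168), near the lower end of the set.

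Nup43 and Nup133 were the outer ring members without an optimal peak. Nup43 had a region in every replicate, with relative signals of 0.640, 0.259 and 0.660 (0.520 ± 0.226), and those of replicates 1 and 3 were in the strongest set. The replicate 2 summit was 233 bp from the pooled one, and the replicate 2 region within 150 bp of the pooled summit had 0.228, so the low value of replicate 2 did not rest on the choice of region. Nup43's pooled signal was 80.3 (rank 6182), a little under the lowest of the optimal set, 89.1. Nup133 had 0.366, 0.271 and 0.290 (0.309 ± 0.0501), and was in no strongest set.

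**Figure D3:**
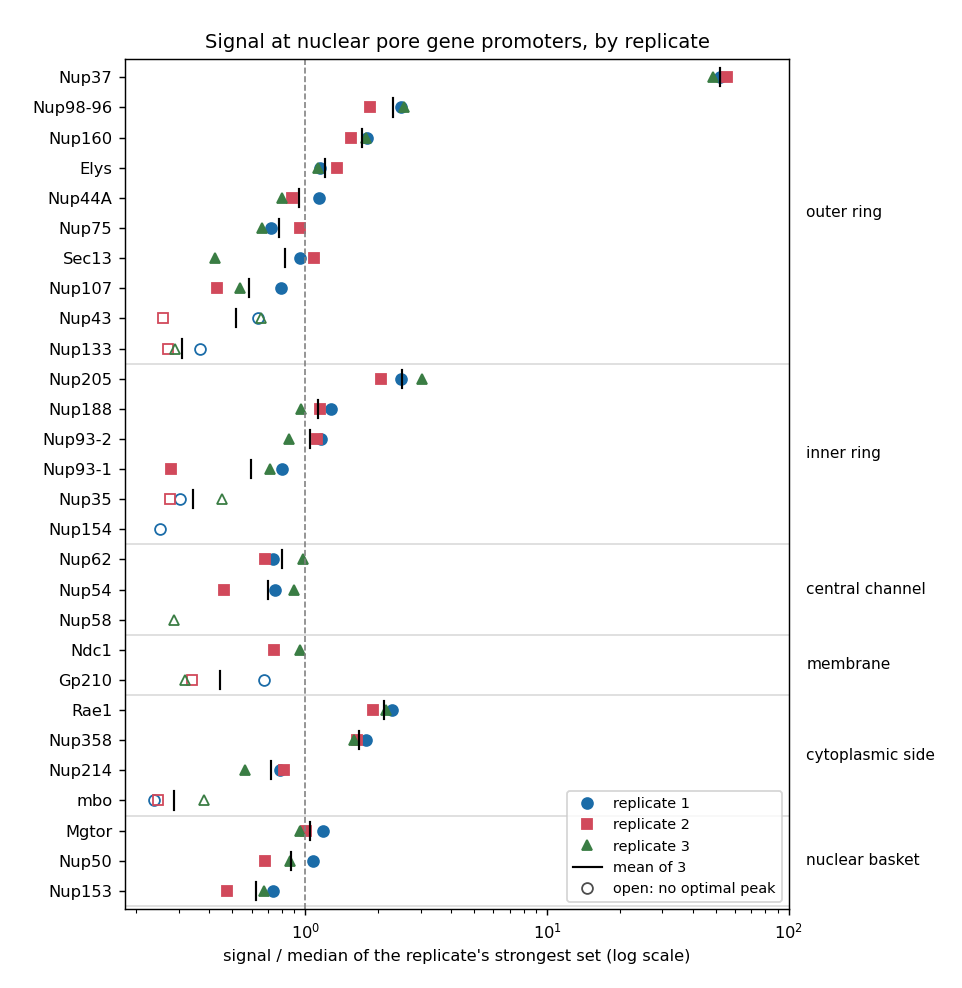
Signal of the strongest region within 500 bp of a start site of each nuclear pore gene, divided by the median of the replicate's strongest set (log scale), by replicate (symbols) and role, with the mean over 3 replicates as a bar and members without an optimal peak as open symbols. Nup37 lies near 52.0, 5 members lie between 1.67 and 2.52, and the others lie near or below the dashed line at 1.

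The inner ring, which lines the pore wall, had an optimal peak at 4 of 6 members. Nup205, a large scaffold protein, had the second highest signal of the members, with relative signals of 2.49, 2.05 and 3.03 (2.52 ± 0.488) and an optimal signal of 435 (rank 453). That summit lay between the Nup205 start, 91 bp away, and the start of pico, an actin regulator, 64 bp away. Nup188, related to Nup205, was lower in every replicate at 1.28, 1.15 and 0.962 (1.13 ± 0.162). The replicate ranges of this related pair did not overlap.

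The fly has a pair of Nup93 genes, which encode the linker protein of the inner ring. Nup93-2 had relative signals of 1.17, 1.12 and 0.853 (1.05 ± 0.168), with optimal peaks at -84 bp and -285 bp from its start, the second nearer to CG3817. The optimal summit at Nup93-1 lay 496 bp upstream, just inside the window, and 23 bp from the start of Clic, a chloride channel gene. Within the window, Nup93-1 had 0.800, 0.279 and 0.713 (0.597 ± 0.279), but the replicate 2 value is that of a weaker region. The stronger replicate 2 region lay at -604 bp, outside the window and 108 bp from the optimal summit, with a relative signal of 0.766. With that region, the Nup93-1 mean was 0.759 ± 0.0438, and the 3 replicates were close together. With either region, Nup93-2 was above Nup93-1 in every replicate.

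Nup35 and Nup154 were the inner ring members without an optimal peak. Nup35, a membrane-binding protein, had relative signals of 0.302, 0.277 and 0.453 (0.344 ± 0.0954), where the replicate 2 summit lay 228 bp from the pooled one and a region within 150 bp of that one had 0.220. Nup154, the fly Nup155 protein, had a region in replicate 1 alone, at 0.252. The nearest optimal summit to Nup154 lay 675 bp from its start and had a signal of 1593, outside the window of 500 bp.

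In the central channel, 2 of 3 members had an optimal peak. Nup62 had relative signals of 0.738, 0.685 and 0.983 (0.802 ± 0.159), and its partner Nup54 had 0.749, 0.460 and 0.897 (0.702 ± 0.222). Replicate 3 was the highest and replicate 2 the lowest for both. Nup58, the other member of this trimer, had a region in replicate 3 alone, at 0.287. The nearest optimal summit to Nup58 was 583 bp away with a signal of 112, so Nup58 and Nup154 were the members just outside the window.

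Of the membrane proteins, Ndc1 had an optimal peak and Gp210 had none. Ndc1 had no region within 500 bp in replicate 1, where the nearest was 1078 bp away, and relative signals of 0.746 and 0.949 in replicates 2 and 3. Its optimal summit lay 10 bp upstream of its own start, with a signal of 112 (rank 4419). Gp210 had 0.677, 0.342 and 0.320 (0.446 ± 0.200) and a pooled signal of 80.1 (rank 6196), so that in replicate 1 alone it was in the strongest set. The membrane group was the only role with no member in the strongest set of all 3 replicates.

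On the cytoplasmic side, 3 of 4 members had an optimal peak. Rae1, an mRNA export factor that binds Nup98, had relative signals of 2.29, 1.92 and 2.16 (2.12 ± 0.190), with an optimal signal of 349 (rank 688) at 2R:21659940-21660161 and no other start site within 500 bp of the summit. Nup358 had 1.78, 1.64 and 1.60 (1.67 ± 0.0967), with replicates close together. Nup214, a filament protein that binds the exportin CRM1, had 0.788, 0.816 and 0.566 (0.723 ± 0.137). In replicate 2 that region lay 211 bp from the optimal summit, and the one at the optimal summit had 0.704, which gave a mean of 0.686 ± 0.112. The Nup214 summit lay 317 bp upstream of its start and 48 bp from that of ReepA.

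The cytoplasmic protein mbo (members only, the fly Nup88), which works with Nup214, had no optimal peak. Its relative signals were 0.237, 0.245 and 0.382 (0.288 ± 0.0816), the lowest mean of the 25 members with a region in every replicate. The mbo summits differed in place, 247 bp from the pooled summit in replicate 1 and 154 bp in replicate 2, so these values are of different regions. Its nearest optimal summit was 12669 bp away. The replicate range of mbo lay below that of Nup214.

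The nuclear basket was the only role in which every member, 3 of 3, had an optimal peak, against 75.0% of all members. The group is small, and by nearest start site 1 of the 3 had a peak. Mgtor, the coiled-coil filament protein of the basket, had relative signals of 1.19, 1.01 and 0.956 (1.05 ± 0.121), and its summit lay 72 bp upstream of its start with no neighbouring gene in reach. Nup50, which binds importin alpha, had 1.08, 0.682 and 0.866 (0.875 ± 0.199). Nup153, which anchors the basket, had 0.733, 0.473 and 0.676 (0.627 ± 0.137), and an optimal signal of 95.6 (rank 5210). All 3 were highest in replicate 1, and the range of Mgtor lay above that of Nup153.

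Nup50 and Nup153 summits lay close to the start of another gene as well. The Nup50 summit was 45 bp upstream of Nup50 and 10 bp downstream of the start of Asap, an Arf GTPase-activating protein gene. That of Nup153 was 22 bp upstream of Nup153 and 4 bp from the start of CG9784.

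Across roles, the order of the 25 members with a region in every replicate, by the strongest region in the window, had few clear steps. Ranked by mean relative signal, neighbours in the order had replicate ranges that did not overlap at 3 places: below Nup37, below Rae1 and below Nup358. Nup205, Nup98-96 and Rae1 overlapped, as did Nup160 and Nup358, and all neighbours from Elys down to mbo overlapped. The mean relative signal fell from 52.0 at Nup37 to 2.52 at Nup205, the second member, and was 0.822 for the median member.

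The height of the members' peaks was ordinary for promoter peaks. The median optimal signal over the 21 members with a peak was 157, against 173 over the 4118 promoter peaks and 188 over the strongest peak of each of the 5097 genes with one. Of the 21, 9 lay above 173. In the replicates, the median relative signal of members with an optimal peak was 1.15, 1.01 and 0.949, against 1.16, 1.16 and 1.12 for all genes with one. The members were level with all genes in replicate 1 and lower in replicates 2 and 3.

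**Figure D4:**
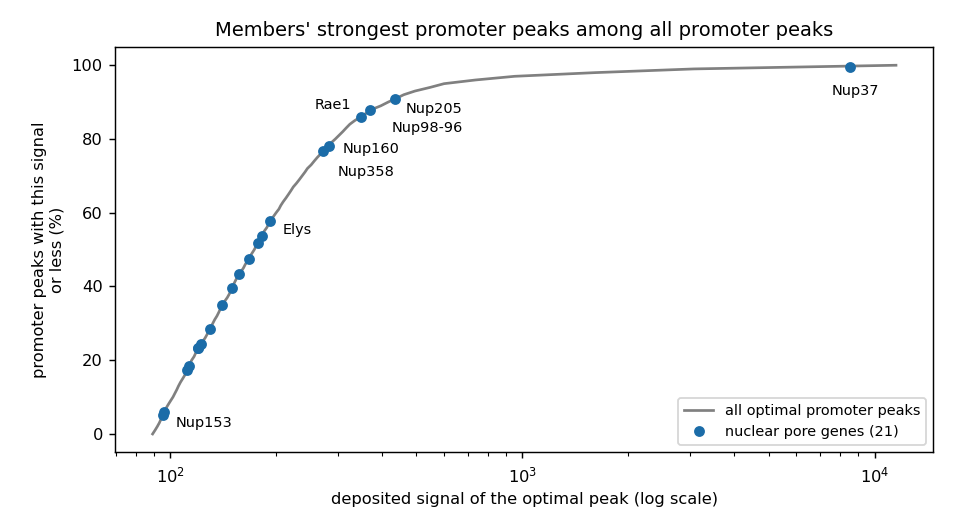
Deposited optimal signal (log scale) of the strongest promoter peak of each of the 21 members with one (points), placed on the cumulative curve of all 4118 optimal promoter peaks (%). Of the 21 points, 9 lie above the promoter median of 173, and Nup37 at 8499 lies near the top of the curve.

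Summits lay close to and mostly upstream of the members' start sites. The median position was -50 bp, with a range from -496 bp at Nup93-1 to 35 bp at Nup54, against a median of -75 bp for all genes with a peak. The summit was upstream of the start at 20 of 21 members (95.2%, against 88.1% of all genes with a peak), and within 100 bp of it at 16 (against 57.7%). Because the window takes in neighbouring genes, these positions include peaks that lie nearer to another start.

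Many of these promoters were shared. The strongest summit of 16 of the 21 members (76.2%) was also within 500 bp of the start of another protein-coding gene, against 58.3% of all genes with a peak, and 13 of 21 (61.9%) lay between divergent starts, against 46.9%. For 9 of 21 (42.9%), the other gene's start was the nearer one, against 30.1% of all genes with a peak. Those 9 were Elys (Ranbp21), Nup153 (CG9784), Nup205 (pico), Nup214 (ReepA), Nup37 (RpS27), Nup50 (Asap), Nup75 (CG42518, with the Mediator gene MED9 also in reach), Nup93-1 (Clic) and Sec13 (ATPsynCF6, an ATP synthase gene). Members with a peak and no other gene in reach were Mgtor, Ndc1, Nup107, Nup358 and Rae1. Nup98-96 (with mbc), Nup160 (with Csl4, an exosome subunit), Nup188 (with CG13148), Nup44A (with ACC), Nup54 (with CG43204), Nup62 (with CG7997) and Nup93-2 (with CG3817) shared the summit but were themselves the nearest gene.

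**Figure D5:**
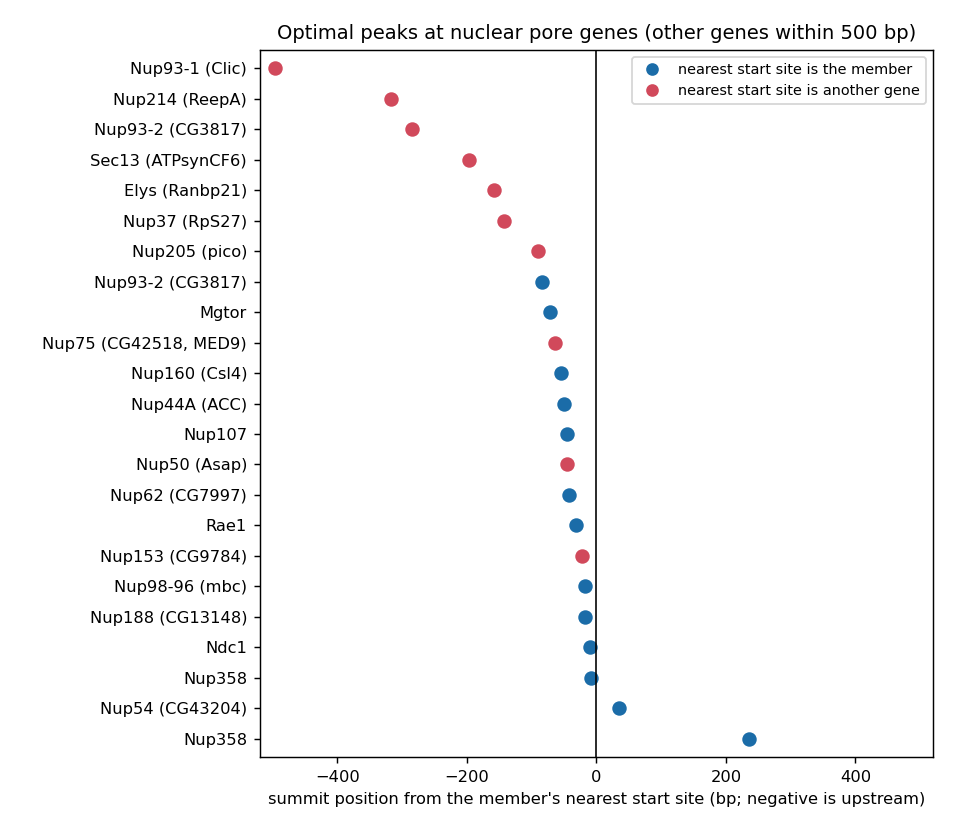
Position (bp, negative is upstream) of each of the 23 optimal summits from the nearest start site of the nuclear pore gene named, with other genes in reach in parentheses. Blue points are nearest to the member and red points to another gene; among the strongest peak of each member, 20 of 21 lie left of 0.

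The members lay on 4 chromosome arms. A peak was at 9 of 10 members on 2R, 6 of 10 on 3R, 4 of 5 on X and 2 of 3 on 2L, while the shares of all genes were 36.8%, 37.4%, 38.4% and 33.9% on these arms. The count per arm is small, and Nup37 and Nup358 on 3R are neighbours.

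At members with an optimal peak, the replicates had summits close to the optimal one, and across members they gave a similar order. Taking in each replicate the strongest region within 150 bp of the member's optimal summit, 62 of 63 were found, all but Ndc1 in replicate 1. Their distance from the optimal summit had a median of 16 bp and reached at most 108 bp, at Nup93-1 in replicate 2. This closeness was partly built in, by the limit of 150 bp and because the optimal set was made from these replicates. Members without an optimal peak are not in these distances. A strongest-set summit lay within 150 bp of the member's optimal summit for 20, 18 and 18 of the 21 members in replicates 1, 2 and 3, and for 15 of 21 in all 3, against 74.5% of all promoter peaks. For these matched regions, the coefficient of variation over replicates had a median of 16.7% (20 members, from 5.77% at Nup93-1 to 42.9% at Sec13), against 16.3% over 4956 genes. With the strongest region in the window instead, it was 18.8%, against 16.2% over 5043 genes. Across members, Spearman's rho of the signals in the window was 0.918 between replicates 1 and 2 (25 members), 0.863 between 1 and 3 (25) and 0.822 between 2 and 3 (26); the points share the genome and the lists, and members are not replicates.

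Genes that act with the pore often had peaks too. These lists were chosen by function, but with earlier results of these data known, so their shares are a description and not independent of the data. Of 22 nuclear transport receptor and Ran cycle genes, 14 (63.6%) had an optimal peak, with a median signal of 278, above the 157 of the pore genes. The highest were Kap-alpha3, an importin alpha (4012, rank 36), msk, importin 7 of the fly (661), Karybeta3 (621) and emb, the CRM1 exportin (548), while Arts, Cse1, Impbeta11 and Ipo9 were among the 8 without one. Elys and Ranbp21 share 1 summit, which is thus counted in both lists.

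Of 15 mRNA export genes, 11 (73.3%) had an optimal peak, at a median signal of 127. Hel25E (288), the UAP56 helicase, shared its summit with Lam, and Ref1 (161), tex (142) and Dbp80 (134) followed, while PCID2, tho2, thoc7 and xmas had none. Of 14 lamina and envelope genes, 9 (64.3%) had one, at a median of 218, led by kuk (383), bocks (352), klar (348) and the B-type lamin Lam (288). LBR, LamC, baf and koi were among the 5 without a peak. Aladin, a pore protein whose symbol falls outside the rule, had none. The shares of the transport, mRNA export and lamina and envelope lists were each above the 36.5% of all genes. Whether the lists differ from the pore genes was not tested. When a strongest-set summit of every replicate within 150 bp was required as well, 5 mRNA export genes (33.3%) were left, against 29.3% of all genes, so that list was then close to the background. The same requirement left 11 of 22 transport and 7 of 14 lamina and envelope genes.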

How the data were processed

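Ets97D ChIP-seq of whole embryos (3 biological replicates, 1 group) was analysed from the authors' narrowPeak lists on dm6. Per the file headers, each replicate list (peaks and background) came from that replicate and a control, a pooled list from all replicates, and the optimal set from an IDR threshold. The signal is the authors' value per region, in a unit the sources used here do not state. The deposited −log10 q-value of each region was not used for any result. For aligner, peak caller and IDR threshold: not given in the sources used here. Depth is unknown.

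Summits were the deposited start plus offset. Start sites came from Ensembl release 115 and sequence from the NCBI Release 6 assembly. A member's region was its strongest within 500 bp. In a replicate this can be another region than the optimal peak, so regions within 150 bp of the optimal or pooled summit were also used. Relative signal is signal over the median of the replicate's strongest regions, as many as the optimal set holds, and summits match within 150 bp. Words were sought within 50 bp on both strands. Counts stand beside the same share over all genes or promoter peaks, with no test. The text names every member, genes sharing a member's summit, and from each other list the 4 strongest and up to 4 without a peak. Members, lists and words were chosen with earlier results of these data known. Alternatives were other windows, thresholds and normalizers, and each replicate left out. Procedures were tested on simulated summits and planted words. Control libraries, dm3 lists and signal tracks were not analysed here. Python 3.11.15, NumPy 2.4.6, SciPy 1.17.1 and matplotlib 3.10.9 were used.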

Additional observations from a re-analysis of the deposited data

How the results depend on the processing

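The count of 21 members with an optimal peak was 19 with a window of 250 bp, which lost Nup214 and Nup93-1 (all genes: 32.0%), and 23 with 1000 bp, which added Nup154 and Nup58 (all genes: 39.8%). It fell to 12 with the nearest start site only (all genes: 26.9%) and to 10 in the strongest 50% of the optimal set (all genes: 22.1%). With 1 replicate left out, optimal peaks were counted only where both other replicates had a strongest-set summit within 150 bp, so that 2 choices changed together: this gave 16 to 17 members, against 15 when all 3 replicates were required, with all genes at 30.9% to 31.4%. The count of 14 in the strongest set of all replicates (all genes: 29.7%) was 25 with all regions (all genes: 48.1%). It was 7 with the strongest 2800, and 15 to 18 with 1 replicate left out. The shares of all genes at these last settings are not given here, so these counts cannot be set against the background. The median position was -23 bp from the nearest start site of any gene. The median relative signal of 0.822 was 3.00 when divided by the median of all regions, a change of scale by construction, 0.809 to 0.880 with 1 replicate left out, and 0.849 with regions matched to the optimal or pooled summit, a choice added after the data were seen. Under the same double requirement, the mRNA export count of 11 was 5 without replicate 1, 6 without replicate 2 and 8 without replicate 3. The shares were 33.3%, 40% and 53.3%, against 30.9%, 30.9% and 31.4% of all genes. The count was 5 when all 3 replicates were required, and the cause of the fall was not tested. The lamina and envelope count of 9 of 14 was 5 of 14 with the nearest start site only, and the cause was not tested. The share of all genes fell as well with that choice, from 36.5% to 26.9%. The 15 member peaks with a panel word (58.8% of promoter peaks) became 11 within 25 bp and 20 within 100 bp. The shares of promoter peaks with any panel word at these other widths are not given here. A wider window takes in more words at any peak: between 50 bp and 100 bp, CGATA rose from 37.7% to 52.1% of promoter peaks. CCGGAA was found at 1 member peak with the summits of replicate 2 or of replicate 3, and at 0 with those of replicate 1. The share of all promoter peaks with replicate summits is not given here. Counting error cannot be given because depth is unknown, and 3 replicates of a mixed collection limit what the spread shows.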
